A study of Mus musculus with 4 samples.

Results

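The Notch effectors and Fringe genes are the 10 genes Hes1, Hes5, Hey1, Hey2, Heyl, Nrarp, Rbpj, Lfng, Mfng and Rfng. They were chosen by name, as every non-control array probe whose RefSeq accession belongs to 1 of these symbols, which gave 13 of the 55681 probes and 10 of the 20660 named genes. They were measured in mouse EB5 embryonic stem cells that carry an RFP reporter of Hoxb6, a posterior Hox gene. The cells had differentiated for 6 days on OP9 stromal feeder cells and were sorted for Flk-1, the VEGF receptor encoded by Kdr that marks early vascular and blood-forming mesoderm. The Flk-1+Hoxb6-RFP+ fraction (RFP-positive) was hybridised to 2 one-colour arrays and the Flk-1+Hoxb6-RFP- fraction (RFP-negative) to 2 arrays, 4 in all. Both fractions therefore share the line, the reporter, the feeder and the Flk-1 gate, and differ, by their labels, in reporter signal. The labels do not say whether the arrays of a fraction came from separate cultures, so errors and p-values below measure the spread between these arrays, which may be technical.

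Notch receptors are cut on contact with a Delta or Jagged ligand, and the freed intracellular domain joins the DNA-binding protein Rbpj to switch on target genes. Among the most direct targets are the Hes and Hey genes, which encode transcriptional repressors of the basic helix-loop-helix type, and Nrarp, whose product takes part in shutting the same complex down. The Fringe enzymes (Lfng, Mfng and Rfng) extend the O-fucose sugars on the receptor and so change which ligands it answers to. In the embryo the pathway is known for arterial fate and blood stem cell emergence, where Hey1 and Hey2 act in arterial endothelium, and for the somite clock, in which Lfng and Hes7 cycle.

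A signal below is the scanner's processed intensity divided by the 75th percentile of its array, as log2, and a difference is RFP-positive minus RFP-negative on that scale, so that 1 means a doubling. Between 55.2% and 59.3% of the spots carried the scanner's mark for signals well above background, and no spot was saturated. Kdr was bright on all 4 arrays, from 4.18 to 4.41, and all 18 endothelial marker genes were well above background on all 4, whereas the Hoxb6 probe was not on any, so that the RFP label could not be checked against its own transcript. Over the 13432 genes tested, the typical size of the difference between the arrays of a fraction (median) was 0.25 for RFP-negative and 0.38 for RFP-positive arrays.

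Of the 10 genes, 9 were well above background on all 4 arrays and were tested. None passed limma's moderated test at an adjusted p of 0.05, and over all genes 0 did, which is 0% of those tested, with 872 genes (6.49%) at an unadjusted p under 0.05. The adjusted p of the 9 genes (limma, Benjamini-Hochberg over all genes tested) ran from 0.706 to 0.980. With 2 arrays against 2, an exact permutation test of any single gene cannot go below a two-sided p of 0.333. The values are therefore a description of 4 arrays, and the gene-by-gene intervals show how large a difference they leave room for.

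For 4 of the 9 genes the fractions shared no range: Hes5, Rbpj and Nrarp, which lay higher in RFP-positive cells, and Lfng, which lay lower. That is 44.4% of the 9, beside 40.3% of all genes tested (18.8% higher and 21.6% lower), so the share is near the background. Of all the genes without overlap 46.5% were higher, and 59.5% when arrays were centred on the median. The median difference was 0.08 for the 9 genes and −0.05 for all genes tested. In size, Lfng was exceeded by 2.90% of all genes tested, Hes5 by 9.73% and Rbpj by 15.9%. The smallest separation among the 4 belonged to Nrarp, whose difference was exceeded in size by 85.0% of genes.

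**Figure D1:**
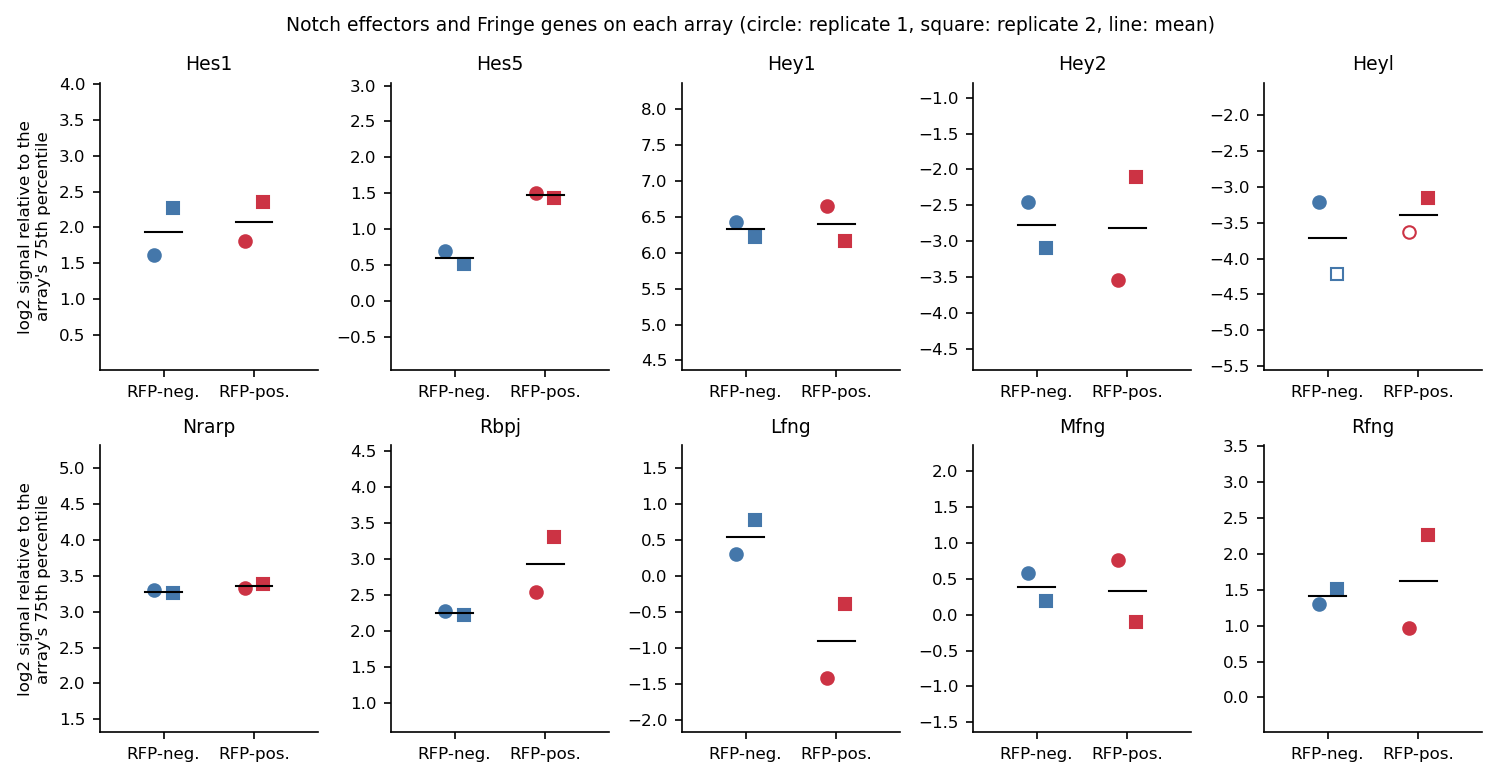
Log2 signal relative to the array's 75th percentile (y axis) of the 10 genes on each array of the RFP-negative (blue) and RFP-positive (red) fraction; circles are replicate 1, squares replicate 2, bars the mean of 2 arrays, and open symbols signals not well above background, with every panel spanning the same number of log2 units. The red symbols sit apart from the blue in height for Hes5, Rbpj and Lfng, and for Nrarp they are nearly level, with a gap of 0.04. For the other genes they mix with or straddle the blue.

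Because these genes belong to a pathway that acts through Rbpj, the promoter windows of the 4 genes whose fractions separated are shown, with that of Hey2 as a gene whose fractions overlapped. Each runs from 250 bases before an annotated RefSeq start site to 50 bases after it, in build GRCm38.p6, printed 5′ to 3′ on the gene's strand. Capitals mark TGGGAA, the core bound by Rbpj, on either strand (TTCCCA is the same core read from the other strand). The array design was laid out on an earlier build, so these coordinates describe the windows and not the probes.
Hes5, chr4:154960673-154960972, plus strand: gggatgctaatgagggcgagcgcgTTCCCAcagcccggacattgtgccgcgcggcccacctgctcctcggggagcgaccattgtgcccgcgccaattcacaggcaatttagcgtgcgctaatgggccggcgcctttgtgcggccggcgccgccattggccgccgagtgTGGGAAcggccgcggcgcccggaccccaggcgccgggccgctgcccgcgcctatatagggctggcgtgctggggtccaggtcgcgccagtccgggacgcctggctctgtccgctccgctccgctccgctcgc
Lfng, chr5:140607091-140607390, plus strand: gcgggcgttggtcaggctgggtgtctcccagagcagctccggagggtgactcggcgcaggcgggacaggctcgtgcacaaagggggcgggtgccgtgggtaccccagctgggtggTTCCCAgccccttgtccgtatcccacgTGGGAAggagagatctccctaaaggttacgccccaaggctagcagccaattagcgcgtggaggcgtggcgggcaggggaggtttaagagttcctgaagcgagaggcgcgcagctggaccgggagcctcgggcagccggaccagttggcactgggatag
Rbpj, chr5:53590096-53590395, plus strand: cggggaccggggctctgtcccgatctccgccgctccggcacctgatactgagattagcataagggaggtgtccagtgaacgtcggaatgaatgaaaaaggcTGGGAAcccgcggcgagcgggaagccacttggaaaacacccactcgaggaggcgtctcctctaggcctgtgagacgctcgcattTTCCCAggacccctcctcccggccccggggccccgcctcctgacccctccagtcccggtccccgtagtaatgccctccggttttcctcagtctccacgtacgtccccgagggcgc
Nrarp, chr2:25180508-25180807, plus strand: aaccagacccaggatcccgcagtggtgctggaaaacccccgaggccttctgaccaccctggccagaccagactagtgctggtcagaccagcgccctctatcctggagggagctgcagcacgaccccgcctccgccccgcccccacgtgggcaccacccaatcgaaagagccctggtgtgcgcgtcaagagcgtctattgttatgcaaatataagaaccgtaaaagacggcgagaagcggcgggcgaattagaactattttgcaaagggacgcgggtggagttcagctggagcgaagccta
Hey2, chr10:30842734-30843033, minus strand: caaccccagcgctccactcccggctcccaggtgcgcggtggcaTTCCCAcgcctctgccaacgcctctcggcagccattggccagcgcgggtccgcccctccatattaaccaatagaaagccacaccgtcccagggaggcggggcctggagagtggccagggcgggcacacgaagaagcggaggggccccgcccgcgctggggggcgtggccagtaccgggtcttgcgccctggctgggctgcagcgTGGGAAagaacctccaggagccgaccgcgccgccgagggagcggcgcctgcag

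Windows were at hand for 6 of the 10 genes, 7 in all because Rbpj has 2. TGGGAA was searched on both strands and occurred at least once in 25.6% of the 32851 windows of the whole table and at least 2 times in 3.79%. It was found 2 times in the windows of Hes5, Lfng, Hey2 and the first Rbpj start, once at the second Rbpj start, and not in those of Nrarp and Rfng. In Hes5 the matches began 226 and 82 bases before the start site, in opposite orientations. In Lfng they began 135 and 108 bases before it, and in Hey2 207 and 3 bases before it. Genes with the motif thus include Lfng, which lay lower in RFP-positive cells, Hes5, which lay higher, and Hey2, which overlapped.

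The sites that Hes and Hey proteins themselves bind were searched in the same way. CACGTG, an E-box that reads the same on both strands, occurred in 7.15% of all windows and in those of Nrarp and Lfng. In Lfng it began 112 bases before the start site and shared 2 bases with a TGGGAA match. CACNAG, the N-box, occurred in 42.5% of all windows, and here in Nrarp (2 matches), Lfng and Rfng. The Hes5, Hey2 and Rbpj windows held neither. These matches describe letters in a window and say nothing of binding in these cells.

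**Figure D2:**
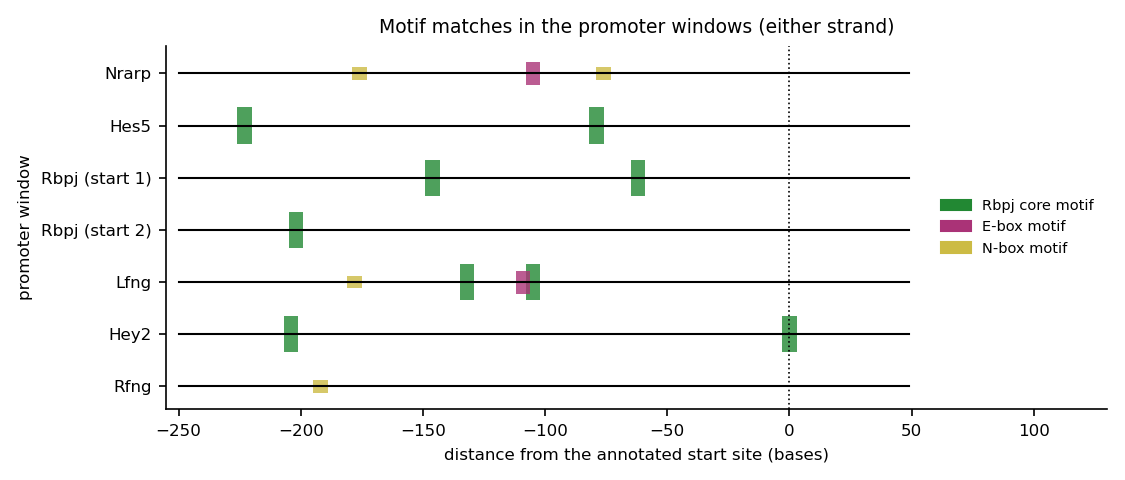
Matches of the Rbpj core (green), E-box (purple) and N-box (yellow) motifs, on either strand, by distance in bases from the annotated start site (x axis, dotted line at the start) in the 7 promoter windows (black lines, y axis). The paired green marks of Hes5, Rbpj (first start), Lfng and Hey2 contrast with the windows of Nrarp and Rfng, which have none.

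Among the repressors, Hes5 separated the fractions most evenly. Hes5, a target of Notch best known from neural progenitors, stood at 0.69 and 0.52 on the RFP-negative and at 1.51 and 1.43 on the RFP-positive arrays. Both RFP-positive arrays lay above both RFP-negative arrays, by at least 0.74, and the arrays of each fraction were 0.18 and 0.08 apart. The means were 0.60 ± 0.12 and 1.47 ± 0.06 (SD, n = 2 arrays each), a 1.82-fold difference of 0.87 (SE 0.23, 95% interval 0.27 to 1.47). Its unadjusted p of 0.0141 became an adjusted p of 0.706 in the limma fit. Leaving out any 1 array gave between 0.78 and 0.95. Before scaling, the processed intensities were 295.7 and 297.4 against 587.3 and 673.2.

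Markers of neural progenitors did not separate in 1 direction beside it. Of 8, 6 were tested, and Pax6 was well above background on none of the arrays. Of the 6, 1 was higher and 2 lower without overlap, beside 18.8% and 21.6% of all genes tested. The summed level of the 6 (linear signals, each over the array's 75th percentile) was 26.2 and 32.9 in RFP-negative against 23.3 and 25.8 in RFP-positive cells. Tubb3 made up 74.9% to 82.6% of each sum, and the other 5 genes summed to 5.16 and 5.73 against 5.84 and 6.43, in the opposite order. In bulk RNA of this kind, a different number of cells that express a gene and a different amount per cell cannot be told apart.

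Hes1, the broadly expressed repressor that oscillates in many progenitors, read 1.62 and 2.27 in RFP-negative against 1.81 and 2.35 in RFP-positive cells. The fractions overlapped, and the replicate 2 array was the higher one in both. The difference was 0.14 (SE 0.35, 95% interval −0.78 to 1.05), smaller than the 0.65 between the RFP-negative arrays.

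Hey1 had bright signals on every array, with processed intensities from 15509 to 20701. On the relative scale it read 6.43 and 6.22 in RFP-negative against 6.65 and 6.16 in RFP-positive cells. The RFP-positive arrays lay just above and just below both others. Its difference of 0.08 (SE 0.28) had a 95% interval from −0.66 to 0.81, which leaves room for a change of either sign. After quantile normalization the difference was 0.25 and the fractions no longer overlapped, with RFP-positive higher.

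Hey2 was dim but well above background throughout, at −2.45 and −3.10 in RFP-negative against −3.54 and −2.10 in RFP-positive cells. Its RFP-positive arrays differed by 1.44, a gap that 5.87% of all genes tested exceeded, and they enclosed the RFP-negative values. The difference of −0.05 (SE 0.56) had the widest interval of the repressors, from −1.50 to 1.40.

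Heyl, the third Hey gene, was not tested. It was well above background on RFP-negative replicate 1, at −3.22, and RFP-positive replicate 2, at −3.16. The other arrays, RFP-negative replicate 2 and RFP-positive replicate 1, read −4.22 and −3.63 and were not well above background. The 2 measured arrays, 1 from each fraction, were thus near each other.

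Nrarp, the feedback inhibitor, was the steadiest of the 9. It read 3.30 and 3.26 in RFP-negative against 3.34 and 3.38 in RFP-positive cells. The fractions did not overlap, but the gap between them was 0.04, and all 4 arrays lay within a narrow band. The difference was 0.08 with an SE of 0.22 that limma drew in large part from the spread of other genes, and a 95% interval from −0.50 to 0.66. It was 0.11 with normexp background correction, 0.14 after quantile normalization and 0.16 with arrays centred on the median.

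Rbpj, the DNA-binding factor itself, read 2.28 and 2.22 in RFP-negative against 2.55 and 3.30 in RFP-positive cells on the probe used. The RFP-negative arrays were within 0.06 of each other, and the RFP-positive arrays were above them but 0.76 apart. The means were 2.25 ± 0.04 and 2.92 ± 0.53 (SD, n = 2 arrays each), a 1.60-fold difference of 0.68 (SE 0.33, 95% interval −0.18 to 1.54; limma adjusted p 0.745). RFP-positive replicate 2 carried most of it. Without that array the difference was 0.30, and without RFP-positive replicate 1 it was 1.06.

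The second Rbpj probe, which the files name by the same accession, did not separate the fractions. It read 0.24 and 0.21 in RFP-negative against −0.07 and 1.16 in RFP-positive cells. RFP-positive replicate 2 was again the highest array, while replicate 1 lay below both RFP-negative arrays. Its difference was 0.32, and with the mean of both probes in place of the brighter one Rbpj no longer separated the fractions, at 0.50. The higher value is thus shared by the probes on RFP-positive replicate 2 only.

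Of the Fringe enzymes, Lfng lay lower in RFP-positive cells and the other two overlapped. Lfng, the family member of the somite clock, read 0.31 and 0.78 in RFP-negative against −1.42 and −0.40 in RFP-positive cells. Both RFP-positive arrays lay under both RFP-negative arrays, the nearest by 0.71, but they were themselves 1.02 apart. The means were 0.55 ± 0.34 and −0.91 ± 0.72 (SD, n = 2 arrays each), a 2.74-fold difference of −1.45 (SE 0.43, 95% interval −2.56 to −0.34). The unadjusted p was 0.0204 and the limma adjusted p 0.728. Without RFP-positive replicate 1 the difference was −0.94, and without replicate 2 it was −1.96.

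Lfng is a gene of paraxial mesoderm and somites, and markers of that tissue were divided. Of 10 markers 9 were tested, and Meox2 was well above background on none of the arrays. Of the 9, 3 were higher and 2 lower without overlap, beside 18.8% and 21.6% of all genes tested. Of the 9 differences, 6 were below 0, with a median of −0.12. The summed level of the 9 genes was 22.7 and 21.2 in RFP-negative against 25.0 and 35.1 in RFP-positive cells, of which Foxc2 made up 89.4% to 94.2%. The other 8 genes summed to 2.14 and 2.24 against 2.38 and 2.05, which overlap. Tbx6, a factor of presomitic mesoderm named here after its values were seen, read −1.74 and −1.87 against −3.06 and −3.05, lower like Lfng (difference −1.24, SE 0.23, limma adjusted p 0.581). Meox1 and Tcf15, named in the same way, went in the opposite direction without overlap, with differences of 1.28 (SE 0.34) and 0.96 (SE 0.22). Hes7, the other clock gene, read −1.68 and −1.28 in RFP-negative against −0.83 and −0.996 in RFP-positive cells, a difference of 0.57 (SE 0.26) opposite in sign to that of Lfng.

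Markers of stroma, fat and smooth muscle had lower signals in RFP-positive cells together with Lfng. Of 13 stromal genes tested out of 15, 10 were lower and 0 higher without overlap, with summed levels from 80.1 to 127.6 in RFP-negative against from 54.6 to 67.0 in RFP-positive cells. Dcn and Postn, defining genes of that list, were well above background on none of the arrays. All 10 adipocyte genes were lower without overlap, with summed levels from 51.2 to 62.4 against 16.1 to 21.5. For smooth muscle the count was 5 of 7 tested out of 9, with 28.9 to 45.0 against 21.1 to 22.3. Over all genes tested, 21.6% were lower and 18.8% higher without overlap. Between the RFP-negative arrays, Lfng and the stromal, adipocyte and smooth muscle sums were all lower on replicate 1 than on replicate 2. Between the RFP-positive arrays, Lfng was again lower on replicate 1, whereas the stromal, adipocyte and smooth muscle sums were lower on replicate 2. Without Tagln, the brightest smooth muscle gene, the other 6 summed to 11.97 and 12.08 on these arrays, in the opposite order. The stromal and adipocyte sums kept their order without their brightest genes, Cxcl12 and Fabp4. The part of these cells in the Lfng result was not tested.

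Markers of endothelium, in which Rbpj and Hey genes are at work, were higher without overlap for 9 of 18 and lower for 0. Over all genes tested the shares were 18.8% and 21.6%. Of the 18 differences, 6 were below 0, and the median was 0.18. The summed level of the 18 genes was 127.1 and 119.6 in RFP-negative against 140.8 and 155.8 in RFP-positive cells. Of 12 blood markers, 9 were tested, with 4 higher and 1 lower, and Hba-x and Gfi1b were well above background on none of the arrays. Blood sums were 21.8 and 23.2 against 26.8 and 23.0, of which Csf1r made up 76.6% to 86.3%. The other 8 genes summed to 3.51 and 3.18 against 6.28 and 5.18, higher in both RFP-positive arrays. Runx1, a regulator of blood emergence, differed by 1.54, Gata1, the erythroid factor, by 1.44 and Myb, well above background on 3 of the 4 arrays, by 1.29, each higher without overlap at an unadjusted p under 0.05 and named after their values were seen. Spi1, the myeloid factor, was the lower one, at −1.11. Their part in the Hes5 and Rbpj values was not tested.

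Mfng, the Fringe gene usually seen in endothelium and blood, was measured alike by its probes. The probe used read 0.58 and 0.20 in RFP-negative against 0.76 and −0.10 in RFP-positive cells, and the other 0.49 and −0.05 against 0.29 and 0.05. In each fraction and on both probes replicate 1 was the higher array. The differences were −0.06 (SE 0.38, 95% interval −1.04 to 0.92) and −0.05.

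Rfng, the most widely expressed Fringe, was measured by probes that disagreed. The probe used read 1.30 and 1.51 in RFP-negative against 0.97 and 2.27 in RFP-positive cells, which put the RFP-positive arrays on either side of the others and 1.30 apart. The second probe read −0.81 and −1.23 against −0.68 and −1.17, with the order of the RFP-positive arrays turned round. The differences were 0.21 (SE 0.48, 95% interval −1.04 to 1.46) and 0.10, so that neither probe separated the fractions.

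**Figure D3:**
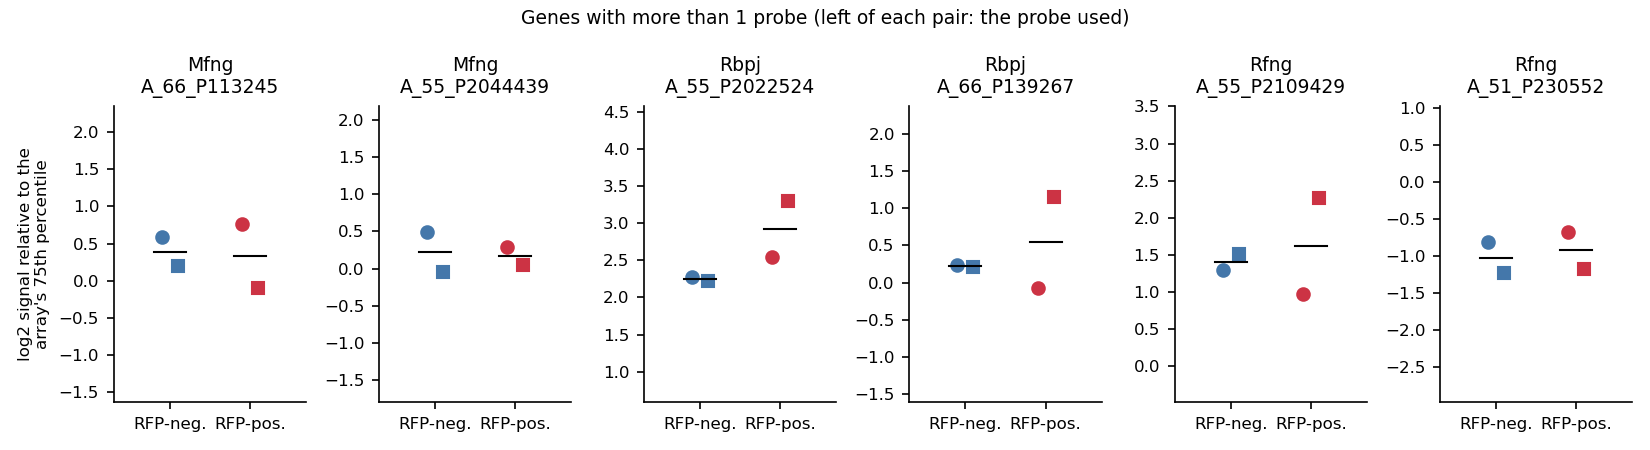
Log2 signal relative to the array's 75th percentile (y axis) for both probes of Mfng, Rbpj and Rfng on the RFP-negative (blue) and RFP-positive (red) arrays; circles are replicate 1, squares replicate 2 and bars the mean. RFP-positive replicate 2 is the highest array on both Rbpj probes, at 3.30 and 1.16, but on only 1 of the Rfng probes.

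For 4 of the 9 genes, Hey1, Hey2, Mfng and Rfng, the RFP-positive arrays lay on opposite sides of both RFP-negative arrays. The pattern was found in 17.1% of all genes tested, and the second probes of Mfng and Rfng did not show it. Counts by separation therefore lean on single arrays. Without RFP-positive replicate 1, 6 of the 9 were higher and 3 lower without overlap, beside 81.3% of all genes tested in either direction. Without RFP-positive replicate 2 the counts were 5 and 3, beside 66.3% of all genes. Hes5, Nrarp, Rbpj and Lfng kept the sign of their difference in all 13 alternative settings, and Hes1, Hey1, Hey2, Mfng and Rfng did not.

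**Figure D4:**
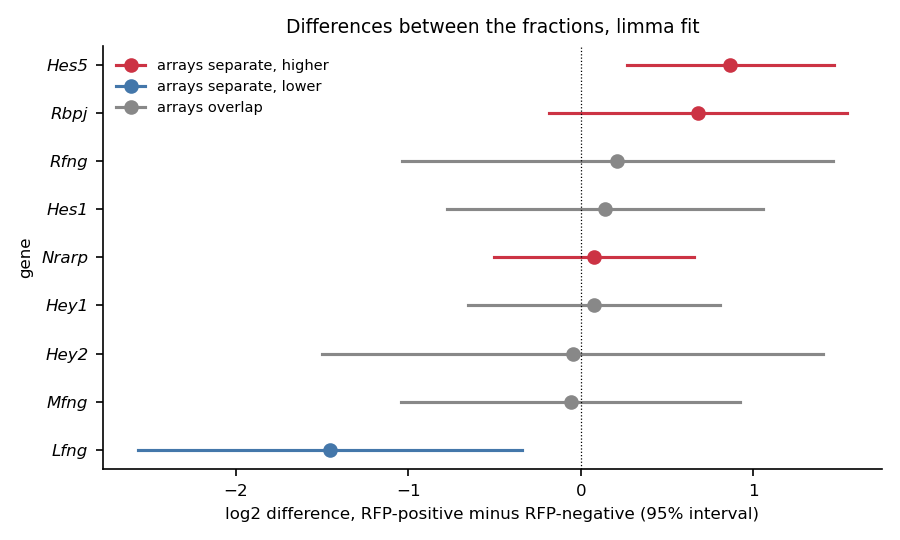
Log2 difference, RFP-positive minus RFP-negative (x axis), of the 9 genes tested (y axis), with 95% intervals from the limma fit to 2 arrays a fraction; red and blue mark genes whose arrays separate, higher or lower, and grey those that overlap. The intervals of Hes5 (0.27 to 1.47) and Lfng (−2.56 to −0.34) lie to 1 side of 0 before adjustment for the number of genes, and the other 7 include it.

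The other genes of the pathway, 69 with a probe, of which 64 were tested, were divided evenly between the directions. At an adjusted p of 0.05 (limma) 0 of the 64 passed, and 2, Kat2b and Psen2, had an unadjusted p under 0.05. Without overlap 15 were higher and 15 lower, 46.9% beside the 40.3% of all genes, and their median difference was −0.04. Without RFP-positive replicate 1 the counts were 28 higher and 25 lower, beside 81.3% of all genes tested in either direction. Without RFP-positive replicate 2 they were 20 and 25, beside 66.3%. Without RFP-negative replicate 1 they were 22 and 21, beside 65.3%, and without RFP-negative replicate 2 they were 22 and 25, beside 67.7%.

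On the signal-sending and receiving side, Notch4, a receptor of endothelium, read −0.33 and −0.78 in RFP-negative against −0.22 and −0.06 in RFP-positive cells. Notch2 read 3.78 and 3.38 against 3.79 and 4.04, and these were the 2 of 4 receptors that separated, both higher. Of 6 ligand genes tested, the non-canonical ligand Dlk1 was the higher one without overlap, at 1.44 and 1.95 against 2.05 and 2.56. Jag1, a Jagged ligand of vessels named after its values were seen, was the lower one, at 1.77 and 1.76 against 1.62 and 1.502. Apart from Dlk1, 5 ligands had differences below 0, and the median of the 6 was −0.23. Dll1, the Delta ligand of presomitic mesoderm, overlapped at 0.67 and 0.89 against 0.71 and −0.18, its low array being RFP-positive replicate 2.

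Sugar transfer and cleavage were divided. Poglut1, which adds O-glucose to the receptor, differed by 0.45 (SE 0.29) and Eogt, which adds O-linked GlcNAc, by −0.40 (SE 0.24), each without overlap. Psen2, a catalytic subunit of gamma-secretase, read −1.28 and −1.95 in RFP-negative against −2.52 and −2.36 in RFP-positive cells, a difference of −0.83 (SE 0.31, limma adjusted p 0.745). Aph1a, another subunit of that protease, overlapped and differed by 0.71 (SE 0.42), with RFP-positive replicate 2 at 3.25 far above the other arrays. Enzymes acting before the nucleus thus lay on both sides of 0.

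In the nucleus and among the trafficking factors the picture was also mixed. Kat2b, a histone acetyltransferase recruited by the Notch complex, read −2.90 and −1.86 in RFP-negative against −1.42 and −1.14 in RFP-positive cells, a difference of 1.099 (SE 0.41, limma adjusted p 0.745), while its paralogue Kat2a differed by −0.40 (SE 0.23). Of the corepressors, Spen, which binds Rbpj in the absence of Notch, differed by 0.65 (SE 0.34) and Tle2, a Groucho protein that Hes factors recruit, by −0.51 (SE 0.24). Dtx4, a Deltex ubiquitin ligase, differed by 0.56 (SE 0.24) and Numbl, a relative of the Notch inhibitor Numb, by −0.52 (SE 0.25). Hes6, an antagonist of Hes1, differed by −0.49 (SE 0.25). All of these separated the fractions, and none passed the adjusted threshold.

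**Figure D5:**
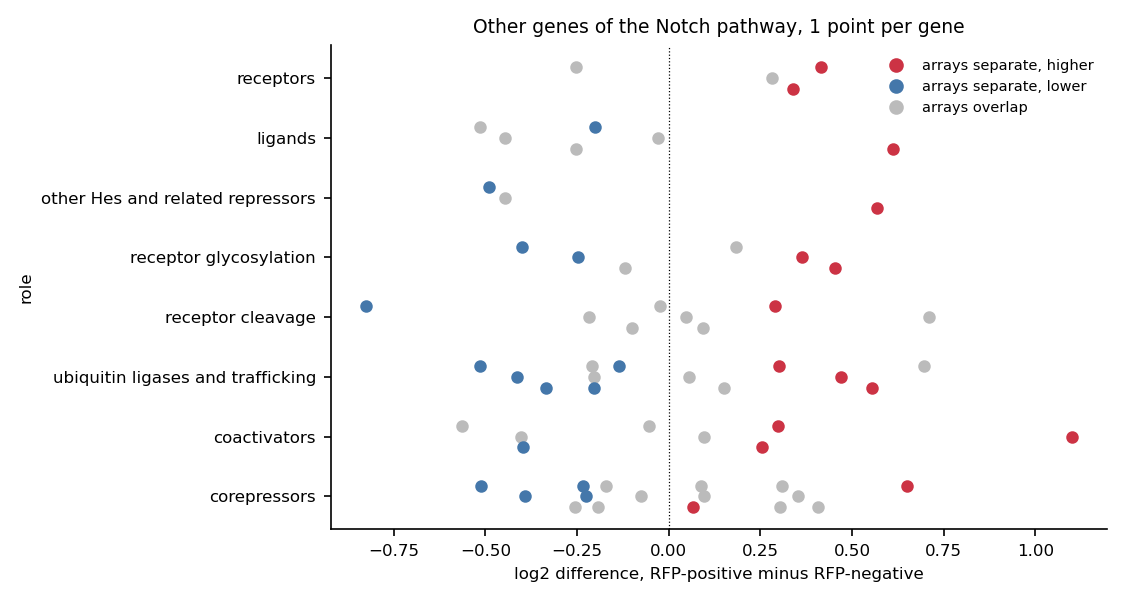
Log2 difference, RFP-positive minus RFP-negative (x axis), of the 64 other Notch pathway genes tested, 1 point per gene, by role (y axis; vertical offsets within a role only keep points apart); red and blue mark genes whose 4 arrays separate, higher or lower, and grey those that overlap. Every role except the receptors has blue as well as red points, and Kat2b at 1.099 and Psen2 at −0.83 are the outermost.

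The genes most like the 4 that separated were sought among 12668 others, as those with the smallest root mean square distance (log2) between their 4 values, each gene centred on its own mean. Likeness over only 4 arrays is a weak criterion, and the names are given as a description. For Hes5 they were Slc35f2, Zfp551 and Tnk2, at 0.0612 to 0.0648. For Lfng they were Lbx2 (well above background on 3 of the 4 arrays), Zfp773 and Plac9a, at 0.0408 to 0.117. For Rbpj they were Coq8a, Slc29a1 and Rab8b, at 0.0212 to 0.0409, all with RFP-positive replicate 2 highest. For Nrarp, whose values hardly varied, they were Csf3r, Rnf214 and Mlkl, at 0.00880 to 0.0102. None of the 12 belongs to the pathway lists.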

How the data were processed

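The labels' groups, RFP-positive and RFP-negative, gave 2 arrays each. Per the file headers, Feature Extraction 10.10.1.1 (Agilent) wrote the deposited intensity values, one-colour signals with background subtracted. The 4 arrays share 1 slide and scan, so that no batch could be tested. The authors' deposited value table holds the same intensity values times 1 constant per array (6.45, 6.02, 5.82 and 5.39; column medians 136.2, 143.9, 133.9 and 142.3, RFP-negative first), linear and not centred, with the choice of the constants not given in the sources used here. Scanner marks (0 or 1, no unit) flagged spots for exclusion, per the file headers.

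Control spots (3671 of 62976) and outlier spots (115 to 153 per array) were left out. Log2 signals were centred on each array's 75th percentile (183.2 to 249.8), spots of a probe averaged, and probes named through RefSeq accessions (GRCm38.p6): 27235 probes had 1 symbol, 28446 none and 0 several. The brightest probe stood for a gene, tested if well above background on both arrays of a fraction, with limma 3.58.1 in R 4.3.3 (2 residual and 2.77 prior degrees of freedom). The steps were tested on simulated data. Alternatives were other scalings (quantile, median), normexp (offset 50, on median spot and local background signals), the value table, other filters, the mean of probes, eBayes with trend, a replicate block and leaving out each array. Marker sums were also taken without each list's brightest gene, a choice made after seeing the data. Genes named by rule are the 10 members, per pathway role the 2 tested genes of smallest p, and the 3 nearest to each member that separated. Kdr and Hoxb6 were named as checks of the sort. Jag1 and single marker genes were named outside these rules, some of them after their values were seen. Members and lists were chosen with earlier results of these data known. Proteins were not analysed here.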

Additional observations from a re-analysis of the deposited data

How the results depend on the processing

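No gene passed an adjusted p of 0.05 under any of the 13 alternatives run for the test (0 in each, with 386 to 2752 genes at an unadjusted p under 0.05). The differences of Hes5, Nrarp, Rbpj and Lfng kept their sign in all of them, from 0.78 to 0.95, 0.06 to 0.16, 0.30 to 1.06 and −1.96 to −0.94. With the median in place of the 75th percentile, Hey2 turned to 0.036 and Mfng to 0.024, and 59.5% of the genes without overlap were higher in RFP-positive cells in place of 46.5%. Leaving out 1 array at a time gave differences from −0.19 to 0.46 for Hes1, −0.17 to 0.32 for Hey1, −0.77 to 0.67 for Hey2, −0.49 to 0.37 for Mfng and −0.44 to 0.86 for Rfng. It gave 1 to 3 members lower and 3 to 6 higher without overlap, and 21 to 25 lower and 20 to 28 higher genes of the other pathway lists, since fewer arrays separate more often. Among all genes tested, 65.3% to 81.3% were without overlap in these settings. No other setting turned the sign of a member. The replicate numbers share only a number (correlation of the replicate deviations across genes 0.092). With the replicate number as a block, 0 genes passed and 1037 had an unadjusted p under 0.05. The adjusted p under this block was 0.637 for Hes5 and 0.628 for Lfng. Without Tubb3, an alternative chosen after seeing the data, the difference of the neural marker sums turned from −4.97 to 0.69. Heyl is limited by signals not well above background on 2 arrays.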
